A study of Mus musculus with 25 samples.

Results

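The genes described here make, break down and carry carnosine, the dipeptide of β-alanine and histidine, and were followed through the hearts of mice given a high fat high sucrose diet and oral carnosine. They are 9 genes chosen by name: Carns1, Cndp1, Cndp2, Pm20d2, Slc15a2, Slc15a3, Slc15a4, Slc6a6 and Csad. The table held 35969 genes after transcripts were summed by gene identifier, all 9 among them. mRNA came from left ventricular tissue of 25 male mice, in 5 groups of 5 mice. WT CNTL mice were wild-type on control diet, and GPx4+/- CNTL mice were littermates on the same diet with 1 functional copy of the gene for glutathione peroxidase 4, an enzyme that reduces lipid peroxides. All 25 mice, those on control diet included, took their diet for 16 weeks from an age of 8 to 10 weeks. WT HFHS and GPx4+/- HFHS mice took the high fat high sucrose diet. WT HFHS + Carnosine mice took that diet with 80 mM carnosine in the drinking water, begun 7 weeks into it. All mice came from a line kept by crossing to C57BL6/J, and GPx4+/- mice lack the copy in every tissue, not in the heart alone. Carnosine given to GPx4+/- mice is not analysed here. The tissue was bulk myocardium, so fewer cells of a type and less RNA per cell cannot be told apart in any of the values below.

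Carnosine is made in muscle and brain by carnosine synthase from β-alanine and histidine, and β-alanine is the limiting part in muscle. It buffers protons, binds metals and traps reactive aldehydes. It is split again by carnosinases, of which the cytosolic enzyme is widespread. The heart holds less carnosine than skeletal muscle, and β-alanine shares its main membrane carrier with taurine.

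Levels are given as scaled TPM, transcripts per 1000000 summed over a gene's transcripts and divided by a median-ratio factor of each library that lay between 0.864 and 1.157. TPM is corrected for transcript length, so levels can be set beside each other between genes. A gene was called detected at a mean of at least 1 over the 25 mice, as traces from 0.1 to 1, and not detected under 0.1. The label of heart held: all 8 ventricular cardiomyocyte markers were high in every library, from 248 for Ryr2 in its lowest library to 15259 for Myl2 in its highest. Of 10 skeletal muscle markers, the fast myosins Myh1, Myh2 and Myh4 stayed under 0.1 in every library, while 4 had a mean of at least 1. Among these were Acta1 (mean 263) and Mybpc2 (7.99), and the 10 summed to between 12.1 and 1020 per library. Gpx4 itself was 591 to 778 scaled TPM in the 15 WT mice and 251 to 383 in the 10 GPx4+/- mice, and fell by 1.08 on the log2 scale (SE 0.0614, limma adjusted p = 1.59e-09, genotype over both diets). A few libraries carried RNA of other tissue. GPx4+/- CNTL replicate 2 summed to 1178 over 7 hepatocyte genes. GPx4+/- HFHS replicates 1 and 3 followed at 99.2 and 61.3, while no group had a median above 14.2. Atrial cardiomyocyte genes summed to 4638 in WT CNTL replicate 3, 7443 in GPx4+/- CNTL replicate 1 and 2729 in GPx4+/- HFHS replicate 4, against group medians of 49.5 to 258. They summed to 1500 in GPx4+/- CNTL replicate 2 and 595 in WT HFHS + Carnosine replicate 2. These are the 5 libraries left out together in an alternative given below, which kept GPx4+/- HFHS replicates 1 and 3.

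Of the 9 genes, 8 were detected in the heart and 1, Cndp1, was not. The order of mean levels over the 25 mice was Slc6a6 (38.1 scaled TPM), Pm20d2 (21.9), Cndp2 (17.9), Csad (10.5), Carns1 (9.65), Slc15a4 (7.36), Slc15a2 (2.45), Slc15a3 (1.28) and Cndp1 (0.0512). Slc6a6 lay above Pm20d2 in 25 of 25 mice without overlap, as did Cndp2 above Csad, Slc15a4 above Slc15a2 and Slc15a3 above Cndp1. The other neighbours overlapped. Pm20d2 exceeded Cndp2 in 24 of 25 mice, Csad exceeded Carns1 in 18, Carns1 exceeded Slc15a4 in 19 and Slc15a2 exceeded Slc15a3 in 22. On protein-coding transcripts alone Slc15a4 (5.32) stood above Carns1 (4.82), and Slc15a3 (1.16) above Slc15a2 (0.684). Among the 11984 genes tested, 83.7% had a lower mean than Slc6a6, 51.8% a lower mean than Carns1 and 3.72% a lower mean than Slc15a3.

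**Figure D1:**
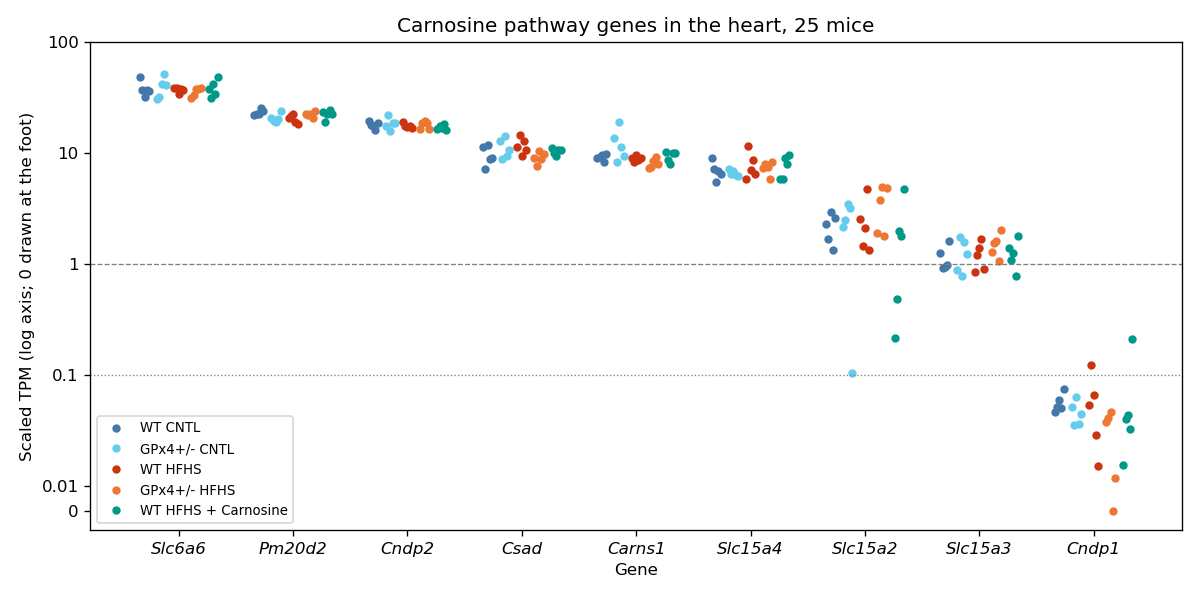
Scaled TPM of the 9 genes in each of 25 mice on a log axis, coloured by group, with the detection limits of 1 (dashed) and 0.1 (dotted). Slc6a6 is the highest gene in every mouse, and Cndp1 is the lowest, at 0 in 1 mouse and above 0.1 in 2.

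The start regions of Csad and Pm20d2 are shown because the RNA of Csad was split over separate starts and that of Pm20d2 came almost wholly from 1 transcript. The sequences are the 250 bases before the RNA start in RefSeq on GRCm38.p6, written 5′ to 3′ on the strand of the gene, with each CG dinucleotide in capitals, since CG-rich starts are the common type of broadly used genes. Csad upstream start (chr15:102205053-102205302, minus strand), Csad downstream start (chr15:102189044-102189293, minus strand) and Pm20d2 (chr4:33189738-33189987, minus strand):
Csad upstream: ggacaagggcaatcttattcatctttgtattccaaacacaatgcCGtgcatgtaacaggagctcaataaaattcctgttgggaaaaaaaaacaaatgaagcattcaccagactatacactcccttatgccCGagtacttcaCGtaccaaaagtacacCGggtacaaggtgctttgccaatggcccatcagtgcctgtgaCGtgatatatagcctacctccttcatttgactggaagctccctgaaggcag
Csad downstream: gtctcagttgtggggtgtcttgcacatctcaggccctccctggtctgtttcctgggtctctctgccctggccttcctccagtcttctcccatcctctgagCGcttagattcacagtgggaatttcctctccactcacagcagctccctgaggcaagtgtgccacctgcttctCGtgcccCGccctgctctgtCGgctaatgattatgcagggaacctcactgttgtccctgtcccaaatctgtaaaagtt
Pm20d2: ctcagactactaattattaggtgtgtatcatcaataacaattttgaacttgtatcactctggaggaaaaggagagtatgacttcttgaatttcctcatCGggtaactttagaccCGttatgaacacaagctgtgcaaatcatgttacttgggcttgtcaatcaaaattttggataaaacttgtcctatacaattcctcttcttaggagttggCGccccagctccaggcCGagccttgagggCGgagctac
The Csad windows held 5 and 4 CG and the Pm20d2 window 5. Of 32851 such windows, 55.6% held 5 or more and 62.2% held 4 or more, so none of the 3 was rich in CG. The window of Slc15a4 held 17, a count reached by 23.5% of windows, and that of Slc15a2 held 4. CG reads the same on both strands, and a count of it is only a description of these letters.

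Carns1, the gene of carnosine synthase on chromosome 19 (4164324 to 4175479, minus strand, GRCm38), was expressed at a steady, moderate level in 4 groups and was spread widely in the fifth. In WT CNTL mice the 5 values were 9.05, 9.31, 9.65, 8.38 and 9.92 scaled TPM. In GPx4+/- CNTL mice they were 13.8, 8.33, 19.1, 11.5 and 9.37. Replicates 3, 1 and 4 of that group were the highest of all 25 mice, and its replicate 2 was below every WT CNTL mouse. On the HFHS diet the values were 9.15, 8.37, 9.66, 8.77 and 8.98 in WT mice. They were 7.44, 7.56, 8.50, 9.30 and 8.01 in GPx4+/- mice, so that 3 of these lay below every WT HFHS mouse. With carnosine they were 10.3, 8.76, 7.98, 10.1 and 9.97, of which 3 lay above and 1 below the range of the WT mice without carnosine.

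Carns1 assigned to transcripts without a coding label made up much of the level. The 2 coding transcripts, Carns1-201 (3968 bases) and Carns1-206 (2371 bases), had means of 2.26 and 2.56 and held 49.9% of the TPM of the gene. The highest transcript was Carns1-207 at 2.68, a retained intron of 466 bases. Weighted by transcript length, which follows the share of sequenced bases, coding transcripts held 80.3%. The high GPx4+/- CNTL mice were high in both classes: coding Carns1 was 6.52, 4.20, 8.90, 5.29 and 4.55 in replicates 1 to 5, and non-coding Carns1 was 7.24, 4.13, 10.3, 6.22 and 4.82. In replicate 3 of that group Acta1, the skeletal α-actin that the ventricle also expresses, was at 4.56 scaled TPM, the lowest of 25 mice. Its part in the Carns1 values was not tested.

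Cndp1, the mouse counterpart of the human serum carnosinase gene, on chromosome 18 (84610509 to 84650095), was not detected. It was above 0 in 24 of 25 mice with a highest value of 0.212, and 77.3% of its TPM fell on Cndp1-202, a retained intron of 3435 bases. The coding transcripts were above 0 in 4 mice. The lowest group mean was 0.0272, in GPx4+/- HFHS, and the highest was 0.0686, with carnosine. The latter rested on replicate 5 at 0.212, as the other mice with carnosine had 0.0154 to 0.0432. At this level Cndp1 was left out of the tests below.

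Cndp2, the cytosolic dipeptidase on the same chromosome as Cndp1 (84667465 to 84685702), was expressed 1.71-fold higher than Csad and was the least variable of the 8 genes. In WT mice, values were 16.3 to 19.5 on CNTL diet, 17.0 to 19.0 on HFHS diet and 16.2 to 18.3 with carnosine. In GPx4+/- mice they were 15.8 to 22.0 on CNTL and 16.6 to 19.6 on HFHS diet. All groups overlapped. The highest value, 22.0, was in GPx4+/- CNTL replicate 2, the library highest for hepatocyte genes. The spread within groups was an SD of 0.107 on the log2 scale, and 25.1% of the genes tested had a smaller one. Coding transcripts held 93.1% of its TPM.

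Pm20d2, a member of the same M20 peptidase family that splits dipeptides of β-alanine with basic amino acids, was the second highest gene. Its RNA was almost all Pm20d2-201 (99.8% of TPM, 1445 bases). Values were 22.3, 22.8, 22.6, 25.6 and 24.3 in WT CNTL. They were 20.9, 21.7, 22.7, 19.1 and 18.3 in WT HFHS, with 4 of 5 below every WT CNTL mouse. GPx4+/- CNTL mice had 20.6, 19.5, 19.1, 20.2 and 24.0, with 4 of 5 below every WT CNTL mouse. GPx4+/- HFHS mice had 22.5, 22.2, 22.8, 21.0 and 23.9, within the range of GPx4+/- CNTL but with a higher median. The carnosine mice ranged from 19.0 to 24.7.

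Of the peptide and histidine carriers, Slc15a4 (PHT1), a lysosomal carrier of histidine and dipeptides, was the highest and had group means from 6.67 ± 0.401 (SD, n = 5) in GPx4+/- CNTL to 7.98 ± 2.35 in WT HFHS, and its highest value, 11.7, was in a WT HFHS mouse. Slc15a3 (PHT2), a related lysosomal carrier found mainly in immune cells, lay between 0.777 and 2.02 in all mice. Its group means ran from 1.15 ± 0.302 in WT CNTL to 1.51 ± 0.364 in GPx4+/- HFHS, with all groups overlapping. Macrophage markers, 8 genes led by C1qa, summed to group medians of 126 for WT and 140 for GPx4+/- on CNTL, 158 for WT and 156 for GPx4+/- on HFHS and 171 with carnosine, and their part in Slc15a3 was not tested. Slc15a1, the intestinal peptide carrier, was not detected (0.0283).

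Slc15a2 (PEPT2), a plasma membrane carrier of di- and tripeptides, was the most variable of the 8 genes. It was 2.31, 1.69, 2.95, 1.34 and 2.59 in WT CNTL and 2.15, 2.48, 3.51, 3.24 and 0.104 in GPx4+/- CNTL. In the carnosine group it was 0.215, 0.485, 2.00, 1.81 and 4.73, so that this group spanned nearly the whole range of the 25 mice. The SD within groups was 0.830 on the log2 scale, and 98.6% of the genes tested had a smaller one. Its coding transcripts averaged only 0.684 scaled TPM, 28.0% of the gene, and the rest was spread over short transcripts, so with coding transcripts alone Slc15a2 was a trace. It overlaps Gm8425 on the other strand.

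**Figure D2:**
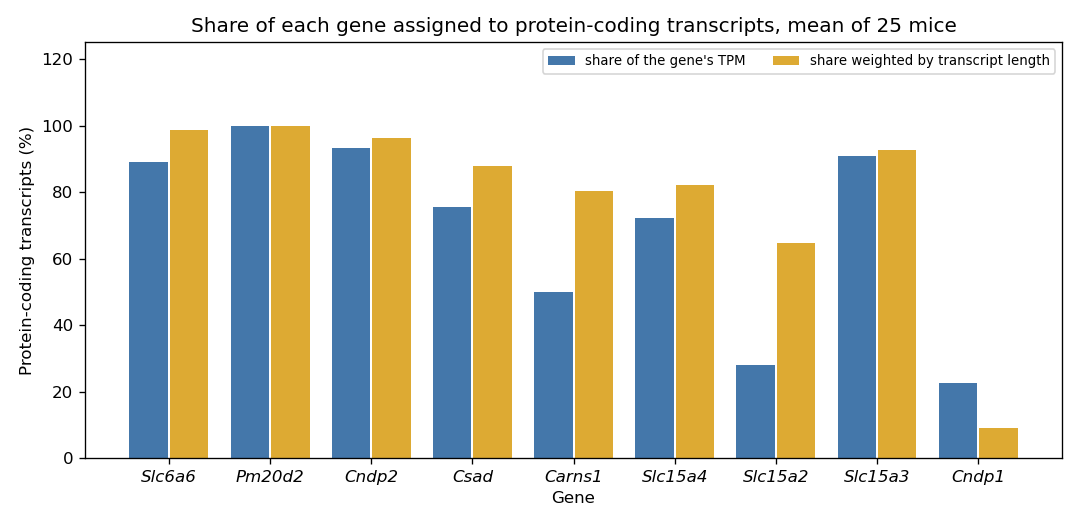
Share of each gene's TPM on transcripts annotated as protein coding, in percent, as deposited (blue) and weighted by transcript length (yellow), over 25 mice. The blue bars of Cndp1, Slc15a2 and Carns1 stand at 22.6%, 28.0% and 49.9%, and those of the other 6 genes are at 72.3% or more.

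Slc6a6 (TauT), the plasma membrane carrier of taurine and β-alanine, was the highest gene. In WT mice, means were 38.5 ± 6.00 on CNTL diet, 37.4 ± 1.80 on HFHS diet and 38.9 ± 6.70 with carnosine (SD, n = 5). In GPx4+/- mice they were 39.8 ± 8.74 on CNTL and 36.0 ± 3.12 on HFHS diet, within the spread of the WT groups. The extremes of all mice, 30.7 and 52.2, both fell in GPx4+/- CNTL. Slc6a6-201, a coding transcript of 6186 bases, held 86.0% of the TPM. Slc36a2, a proton-coupled carrier of small amino acids, was the next highest of the 11 peptide, taurine and β-alanine carriers listed, at 10.7.

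Csad, cysteine sulfinate decarboxylase, makes the precursor of taurine. It was 11.3, 7.26, 11.9, 8.82 and 9.03 in WT CNTL and 12.8, 8.88, 14.4, 9.49 and 10.6 in GPx4+/- CNTL. On the HFHS diet it was 11.4, 14.5, 9.53, 13.0 and 10.7 in WT mice against 9.04, 7.75, 10.4, 8.95 and 9.79 in GPx4+/- mice. Of the WT HFHS mice 4 exceeded every GPx4+/- HFHS mouse. With carnosine it was 11.1, 9.96, 9.49, 10.8 and 10.6, inside the range of both CNTL groups.

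The 23 annotated Csad transcripts fell into 2 main start regions. The 7 that begin between 102187599 and 102189058, around the downstream RefSeq start at 102189043, held a mean of 46.7% ± 8.10 (SD, n = 5) of Csad TPM in WT mice on CNTL diet, 44.3% ± 7.50 on HFHS diet and 43.7% ± 3.63 with carnosine. In GPx4+/- mice they held 45.8% ± 8.87 and 48.3% ± 6.14 on the same diets. The 13 that begin between 102203412 and 102204724, short of the upstream RefSeq start at 102205052, held 33.3% to 40.0% on average, and the other 3 transcripts 13.3% to 22.3%. The share per mouse ran from 31.3% to 57.2% for the downstream starts, and all groups overlapped. In scaled TPM the downstream transcripts averaged 5.17 in WT HFHS and 4.44 in GPx4+/- HFHS, and the upstream ones 4.46 and 3.31, so both were lower in the latter, without a test. Csad overlaps Zfp740 on the other strand, as Slc15a3 does Tmem132a and Slc15a4 Glt1d1, and whether the quantification used strand is not given in the sources used here.

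**Figure D3:**
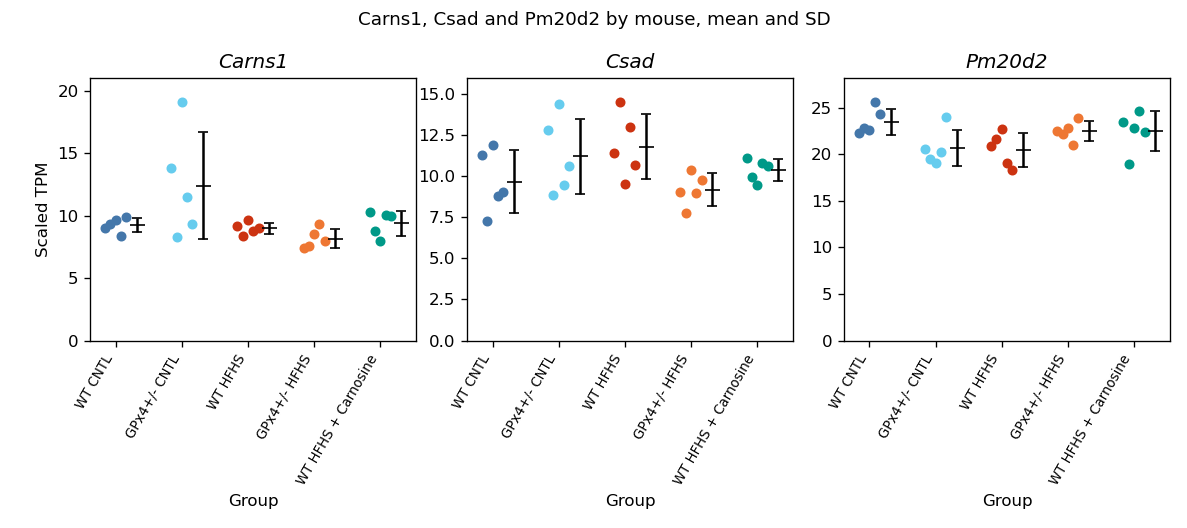
Scaled TPM of Carns1, Csad and Pm20d2 in each mouse, by group, with mean and SD (n = 5) beside the points and axes from 0. The 3 highest Carns1 values, 19.1, 13.8 and 11.5, are all in GPx4+/- CNTL, and Csad in GPx4+/- HFHS lies between 7.75 and 10.4.

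The first question put to the data was what the HFHS diet did to these genes. Differences were tested with limma on log2(scaled TPM + 0.5), a scale that understates changes of low genes, with Benjamini-Hochberg adjustment over the 11984 genes with a mean of at least 1, and a gene was called at an adjusted p under 0.05. The 20 mice without carnosine were fitted together, so each gene had a single spread shared by all their groups. In WT mice 0 of 8 genes were called, where 1.18% of all genes were (142), and limma gave 1 of the 8 an unadjusted p under 0.05, against 16.5% of all genes. That gene was Pm20d2, at a log2 difference of -0.19 (SE 0.0662, 95% interval -0.33 to -0.055, adjusted p = 0.154). Carns1 differed by -0.041 (-0.34 to 0.26), which leaves room for a fold between 0.789 and 1.20. The width of that interval comes in part from GPx4+/- mice. Without GPx4+/- CNTL replicate 3 the Carns1 difference stayed at -0.041, and its SE went from 0.144 to 0.0985. Csad differed by 0.29 (SE 0.141, adjusted p = 0.319), with a range of 0.19 to 0.36 over the alternatives. The median difference of the 8 was 0.011, and of all genes 0.00024.

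In GPx4+/- mice 0 of 8 genes were called by the same test, against 3.34% of all genes (400), and 1 of the 8 had an unadjusted p under 0.05 beside 18.3% of all genes. That gene was Carns1, at -0.52 (SE 0.144, 95% interval -0.82 to -0.22, a fold of 0.696), with an adjusted p of 0.0507 that missed the threshold narrowly. The value lay on both sides of it. The SE, interval and p rest on the shared spread, though the Carns1 SD differed between groups. It was 4.30 scaled TPM in GPx4+/- CNTL, against 0.595 in WT CNTL, 0.475 in WT HFHS and 0.761 in GPx4+/- HFHS. Carns1 was called in 7 of 29 alternative analyses, with an adjusted p from 0.0115 without GPx4+/- CNTL replicate 2 to 0.201 on coding transcripts alone, where the difference was -0.35. The alternatives that left out a WT mouse could not move the difference from -0.52, and gave limma adjusted p of 0.0564 to 0.0631. Without GPx4+/- CNTL replicate 3, the highest library, it was -0.36 (adjusted p = 0.0835), and without the 5 libraries high for atrial or liver genes -0.66 (adjusted p = 0.0396). Csad was -0.26 (SE 0.141, adjusted p = 0.343), with a range of -0.36 to -0.17 over the alternatives. Pm20d2 was 0.12 (SE 0.0662, adjusted p = 0.358), and 0.014 on TPM as deposited. Slc15a2 had the widest interval, 0.66 (-0.23 to 1.54). The median absolute difference of the 8 was 0.18, beside 0.096 for all genes.

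Over both genotypes together 0 of 8 were called, with 8.33% of all genes called (998), and limma gave only Carns1 an unadjusted p under 0.05 (-0.28, SE 0.102, adjusted p = 0.0911). Without GPx4+/- CNTL replicate 2 Carns1 was called in this comparison too (-0.34, limma adjusted p = 0.0231), within a range of 0.0231 to 0.186 over the alternatives. The interval for Cndp2 was narrow, from -0.14 to 0.074, a fold of 0.908 to 1.05. That for Slc6a6 was -0.25 to 0.10.

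The second question was whether GPx4+/- mice differed from WT mice. On CNTL diet 0 of 8 were called, beside 0.0501% of all genes (6), and by limma Carns1 (0.35, SE 0.144, adjusted p = 0.764) and Pm20d2 (-0.18, SE 0.0662, adjusted p = 0.729) had an unadjusted p under 0.05. The Carns1 difference was 0.18 without GPx4+/- CNTL replicate 3 and 0.23 on coding transcripts. On HFHS diet 0 of 8 were called, again beside 0.0501% of all genes, and limma gave Csad alone an unadjusted p under 0.05 (-0.34, SE 0.141, adjusted p = 0.978). Over both diets 0 of 8 were called and 0.0584% of all genes, and limma gave 0 of the 8 an unadjusted p under 0.05. The differences of the 8 over both diets ran from -0.067 for Csad to 0.15 for Slc15a3.

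Whether the diet difference itself depended on genotype was tested as an interaction, the difference in GPx4+/- minus that in WT. limma called 0 of 8 and 0% of all genes, with 3 of the 8 at an unadjusted p under 0.05 beside 7.14% of all genes. These were Csad (-0.55, SE 0.199), Carns1 (-0.48, SE 0.203) and Pm20d2 (0.31, SE 0.0936), and their limma adjusted p were 0.681, 0.681 and 0.651. For Csad and Pm20d2 the diet differences of the genotypes had opposite signs, and for Carns1 they were -0.041 in WT and -0.52 in GPx4+/- mice. The Carns1 interaction was -0.26 on coding transcripts and -0.31 without GPx4+/- CNTL replicate 3, and that of Pm20d2 was 0.20 on TPM as deposited. None passed the correction over all genes.

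The third question was whether oral carnosine moved the genes that handle it, tested on the 10 WT HFHS mice with and without it. limma called 0 of 8 and 0% of all genes, and gave 0 of the 8 an unadjusted p under 0.05, beside 4.21% of all genes. The synthase Carns1 differed by 0.059 (SE 0.0766, 95% interval -0.11 to 0.23), a fold between 0.927 and 1.17. The dipeptidase Cndp2 differed by -0.045 (SE 0.0532, -0.16 to 0.071), and Pm20d2 by 0.13 (SE 0.0804, -0.049 to 0.30). The carrier Slc6a6 differed by 0.040 (SE 0.101, -0.18 to 0.26) and Csad by -0.17 (SE 0.101, -0.39 to 0.056). Slc15a4 differed by -0.042 (SE 0.192, -0.46 to 0.38) and Slc15a3 by 0.043 (SE 0.181, -0.35 to 0.44). For Slc15a2 the interval was wide, -1.64 to 0.51 around -0.57 (SE 0.490), and it was -0.94 without carnosine replicate 5 and -0.22 without carnosine replicate 1. All limma adjusted p lay between 0.947 and 0.990. The median absolute difference of the 8 was 0.052, and of all genes 0.066. As folds, the intervals ran from 0.882 to 1.20 for Slc6a6, 0.967 to 1.23 for Pm20d2, 0.764 to 1.04 for Csad, 0.726 to 1.30 for Slc15a4, 0.783 to 1.35 for Slc15a3 and 0.321 to 1.42 for Slc15a2.

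**Figure D4:**
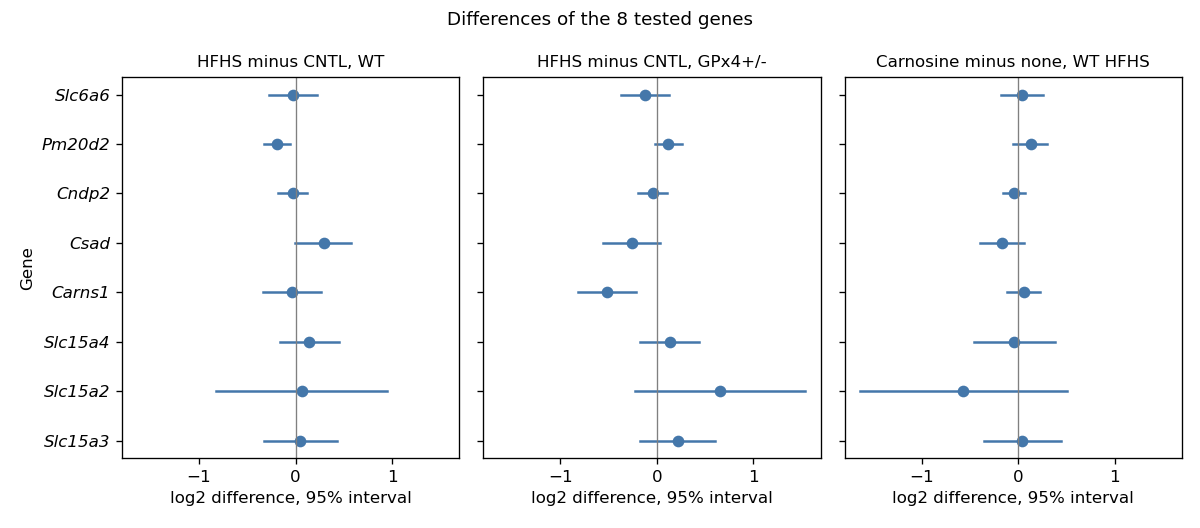
Log2 differences of the 8 tested genes with 95% intervals, for diet in WT (left), diet in GPx4+/- (middle) and carnosine in WT HFHS mice (right), with 0 as a grey line. The interval of Carns1 in the middle panel runs from -0.82 to -0.22, and in the right panel the interval of each gene includes 0.

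Other enzymes of β-alanine fell with the diet over both genotypes. Of 8 listed genes of β-alanine supply and breakdown 4 were tested, and 3 of these fell over both genotypes, none rose, and the median was -0.29 beside -0.0024 for all genes. The percentage called over all genes was 8.33% as above. Within WT mice 0 of the 4 were called, and within GPx4+/- mice only Abat. Cell type markers also differed in level between the diets. The 8 ventricular cardiomyocyte markers summed to medians of 54401 on CNTL and 47096 on HFHS diet in WT mice, and 49993 and 48985 in GPx4+/- mice. Smooth muscle markers (4 genes) went from 106 to 186 in WT and from 97.6 to 130 in GPx4+/- mice, and macrophage markers had higher medians on HFHS diet, as given above. Fibroblast markers (6 genes) went from 340 to 383 in WT and from 362 to 421 in GPx4+/- mice. Skeletal muscle markers, whose sum was mostly Acta1 (mean 263), went from 157 to 236 in WT and from 207 to 305 in GPx4+/- mice. Endothelial markers (5 genes) went from 305 to 309 and from 285 to 315. Atrial markers went from 149 to 137 in WT and from 258 to 49.5 in GPx4+/- mice. Hepatocyte markers (7 genes) went from 6.60 to 1.93 in WT and from 8.92 to 14.2 in GPx4+/- mice. Adipocyte markers (5 genes) had group medians of 0.204 to 3.65 and kidney tubule markers (4 genes) of 0.116 to 1.02. The ranges overlapped for each of these lists in both genotypes, and their part in the falls was not tested. Abat, the transaminase that removes the amino group of GABA and β-alanine, was 4.38, 4.26, 11.5, 4.46 and 6.39 scaled TPM in WT CNTL. It was 1.78, 3.31, 1.57, 3.23 and 2.36 in WT HFHS, below every WT CNTL mouse. GPx4+/- mice had 9.29, 7.06, 4.35, 6.48 and 4.15 on CNTL and 2.60, 2.45, 1.71, 4.83 and 2.72 on HFHS, with 1 mouse of the latter in the range of the former. Abat fell by 1.07 on the log2 scale (SE 0.195, a fold of 0.476, limma adjusted p = 0.00207).

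The highest Abat values of WT CNTL, GPx4+/- CNTL, GPx4+/- HFHS and the carnosine group were all in libraries with high atrial genes. Without the 5 libraries high for atrial or liver genes it fell by 0.91 (limma adjusted p = 0.00243), and Abat was called in 28 of 28 alternatives. Within WT mice the limma adjusted p was 0.0511 (-1.13, SE 0.276) and within GPx4+/- mice 0.0494 (-1.01, SE 0.276). WT HFHS + Carnosine mice had 1.45, 2.76, 2.56, 2.42 and 1.14, all below every WT CNTL mouse, and did not differ from WT HFHS beyond their spread (-0.21, SE 0.233, interval -0.72 to 0.30, limma adjusted p = 0.960).

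Aldh6a1, the mitochondrial dehydrogenase of methylmalonate and malonate semialdehyde into which β-alanine is broken down, fell by 0.22 (SE 0.0463, limma adjusted p = 0.00607). It was 79.3 to 94.1 in WT CNTL and 65.2 to 79.3 in WT HFHS, so that these groups met at the edge, and 77.8 to 98.6 against 70.2 to 78.1 in GPx4+/- mice. Aldh9a1, an aldehyde dehydrogenase of aminoaldehydes, fell by 0.36 (SE 0.0807, limma adjusted p = 0.00966), and on coding transcripts by 0.20 (adjusted p = 0.0365). Its values were 22.0 to 29.0 in WT CNTL and 17.1 to 21.3 in WT HFHS, without overlap, and 23.4 to 30.7 against 14.4 to 23.8 in GPx4+/- mice. With carnosine Aldh9a1 was 16.3 to 21.2, as low as in WT HFHS, and Aldh6a1 64.3 to 83.7. Within WT and GPx4+/- mice taken alone neither was called, with limma adjusted p of 0.0763 and 0.0973 for Aldh6a1 and 0.114 and 0.103 for Aldh9a1.

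**Figure D5:**
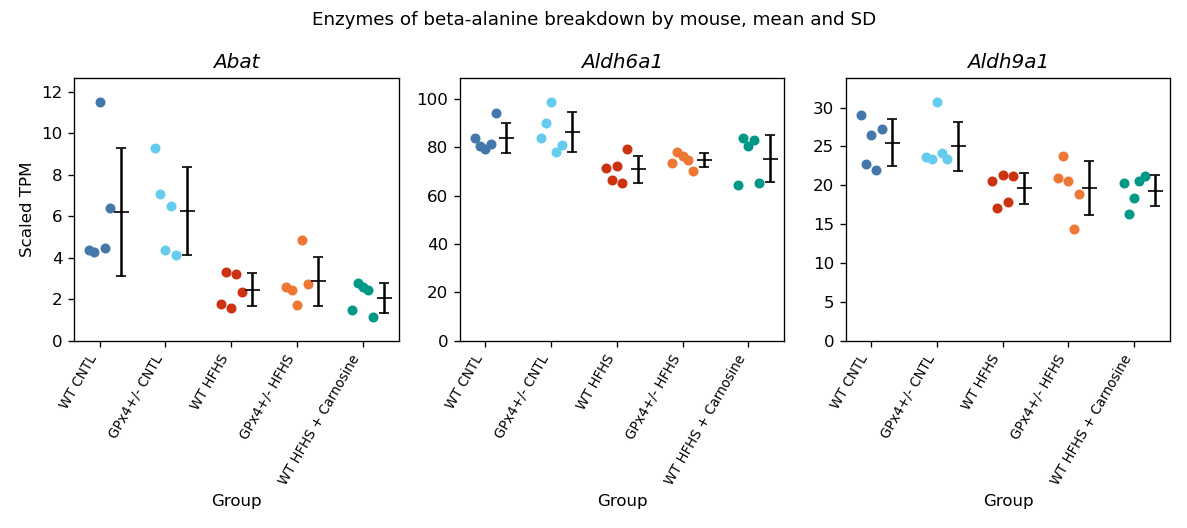
Scaled TPM of Abat, Aldh6a1 and Aldh9a1 in each mouse, by group, with mean and SD (n = 5) and axes from 0. Abat in the carnosine group lies between 1.14 and 2.76, and in WT CNTL between 4.26 and 11.5.

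Of 11 dipeptidases and related peptidases 8 were tested, and Acy1 and Acy3 fell in the fit over both genotypes, none rose, with a median of -0.035, where 8.33% of all genes were called. Acy1, which frees amino acids from their acetyl forms, fell by 0.22 (SE 0.0619, limma adjusted p = 0.0292) and lost its call in 9 of 29 alternatives. Within WT mice it was -0.13 (interval -0.31 to 0.057, limma adjusted p = 0.496) and within GPx4+/- mice -0.32 (adjusted p = 0.0474), and the interaction was not called (adjusted p = 0.741). Acy3, another aminoacylase, fell by 0.27 (SE 0.0730, limma adjusted p = 0.0252) and was called in neither genotype alone (adjusted p = 0.288 and 0.0948). The highest of this list, the membrane dipeptidase Dpep1 (41.7) and the leucine aminopeptidase Lap3 (36.1), were not called. Of 5 osmolyte genes 3 were tested and Akr1b3, aldose reductase, which also reduces lipid aldehydes and their conjugates, rose. It was 171 to 197 in WT CNTL and 204 to 225 in WT HFHS, and 162 to 190 and 194 to 230 in GPx4+/- mice, without overlap in either genotype. The rise was 0.21 (SE 0.0398, limma adjusted p = 0.00266), called in GPx4+/- mice alone (adjusted p = 0.0202) but not in WT mice alone (0.124), and on TPM as deposited 0.16 (adjusted p = 0.0830).

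No gene was called over both genotypes among 7 tested taurine synthesis genes, of which Fmo1 (30.1) and Fmo2 (27.2) were the highest, among 8 tested genes of histidine supply and carnosine methylation, led by the glutamine and histidine carrier Slc38a3 (56.1) and by Slc38a2 (29.4), or among 7 tested carriers. With 8.33% of all genes called, a count of 0 in lists of this size shows nothing particular to them. Carnmt1, which methylates carnosine to anserine, had a mean of 16.8. In the carnosine comparison limma called 0 genes of each of the 6 lists, and 0% of all genes.

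Over the 25 mice the genes most like each better expressed member on log2(scaled TPM + 0.5) were named as a description, since all points share their libraries. For Carns1 they were Sned1 (Pearson r = 0.851, Spearman rho = 0.476) and Arel1 (r = 0.847, rho = 0.590), with rho below r for both. For Cndp2 they were Mrps18c (r = 0.743) and Plcb4 (r = 0.659), for Pm20d2 Haus8 (r = 0.769) and Tti1 (r = 0.750), and for Slc6a6 Hif1a (r = 0.726) and Ppp1r16b (r = 0.714). For Csad they were Abl1 (r = 0.790) and Smtn (r = 0.748), and for Slc15a4 Tnfrsf1b (r = 0.732) and Lpgat1 (r = 0.655). None of these is a member of the lists above.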

How the data were processed

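Left ventricular mRNA of 25 mice, 5 per group, was sequenced as poly(A) libraries with a stranded kit and paired 150-base reads. The authors deposited TPM per transcript for 119215 transcripts. Per the labels, the processing used kallisto 0.43.1 and sleuth 0.30.0 on GRCm38, while the paper describes alignment with STAR and DESeq2 for its own gene tests. TPM keeps no read depth, so no counting error could be given, and its values for short transcripts within a gene are estimates. Columns were matched to mice by the library name in the header, not by the stated column position, and 0 columns were left over. From the TPM, sums per GENCODE M21 gene identifier were computed (116772 transcripts matched, 2443 did not), divided by a median-ratio factor from 11879 genes, and tested with limma 3.58.1 in R 4.3.3 with a mean-variance trend, since TPM are not counts. Genes with a mean of at least 1 entered (11984), with a pseudocount of 0.5. The test was checked on simulated data.

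The carnosine comparison was fitted on its 10 mice, the others on 20. The genes, lists and tests were chosen with earlier results of these data known. Named were all 9 genes, list genes called in a comparison (at most 3 per list), the 2 highest of each list, and the 2 genes most like each member with a mean of at least 5. Carnmt1, Slc15a1, Acta1 and Mybpc2 were named after their values were seen. Alternatives were a pseudocount of 0.1, a minimum of 5 or no filter, quantile normalization, unscaled TPM, a replicate block, all 25 mice in one fit, coding transcripts only, leaving out 5 libraries and leaving out each mouse. Some mice were injected with dextrose and others with saline before death according to the methods, and the labels do not say which. 1 of the 11 marker lists is not reported here.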

Additional observations from a re-analysis of the deposited data

Results flagged for a closer look

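Of 75 groups of 5 values searched (the 9 genes and 6 further enzymes in 5 groups), 3 held a mouse set apart from the other 4 by Dixon's ratio, and about 1 in 20 groups does so by chance. Cndp1 in WT HFHS + Carnosine replicate 5 was 0.212 scaled TPM against 0.0154 to 0.0432 in the others (ratio 0.858). Cndp2 in WT HFHS replicate 1 was 19.0 against 17.0 to 17.6 (ratio 0.715). Aldh9a1 in GPx4+/- CNTL replicate 3 was 30.7 against 23.4 to 24.1 (ratio 0.900), in the same library that had the highest Carns1.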

How the results depend on the processing

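The number of carnosine genes called stayed at 0 for 6 of the 8 comparisons under every alternative run. For the diet in GPx4+/- mice it was 1 (Carns1) with a minimum of 5, with TPM as deposited, with the replicate block, with all 25 mice in one fit and without the 5 libraries high for atrial or liver genes, and 0 to 1 when each mouse was left out (1 without GPx4+/- CNTL replicate 2 or 5). For the diet over both genotypes it was 0 to 1 when each mouse was left out. The cause was not tested. The replicate block is no pairing by design, because equal numbers mark different animals, and deviations correlated at a mean of -0.01 over 50 pairs with the same number (range -0.341 to 0.234). With the block, calls over all genes went from 142 to 68 for diet in WT and from 400 to 306 in GPx4+/-. Without a filter 43 and 235 genes were called, and with TPM as deposited 38 and 424, the latter with 37 higher and 387 lower against 261 and 139 after scaling, since that scale moved the median of all genes by -0.101. The number of carnosine genes detected was 8, also with TPM as deposited, and 7 on coding transcripts, where Slc15a2 was a trace. With a minimum of 5 there were 6 carnosine genes in the test, and with no filter 9.

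Of 266 recomputed values of 30 gene differences, 253 kept their direction and side of the threshold. With a mouse left out, 502 of 520 did. Much of this was fixed beforehand, so the counts say little about how stable the differences are. Leaving out a mouse from outside a comparison, or changing the filter, cannot move its difference. The Carns1 diet difference in WT stayed at -0.041 without GPx4+/- CNTL replicate 1. Many differences also lay far from the threshold, such as Carns1 with carnosine (limma adjusted p = 0.960). Calls were lost for Acy1, Acy3 and Akr1b3 and gained for Carns1, and signs turned only for carnosine differences near 0. With TPM as deposited Carns1 was -0.0097, Slc15a3 -0.013 and Slc6a6 -0.032, and without the 5 libraries Slc15a4 was 0.044. When each mouse was left out, Slc15a3 ran from -0.060 to 0.15, Slc15a4 from -0.14 to 0.099 and Slc6a6 from -0.044 to 0.11. TPM keeps no depth, so the precision of low genes such as Slc15a2 and Slc15a3 rests on 5 mice a group.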

Other observations

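The ratio of Carns1 to Cndp2 per mouse, synthase to cytosolic dipeptidase in TPM, does not depend on the scaling. In WT mice it was 0.514 ± 0.0300 (SD, n = 5) on CNTL diet, 0.509 ± 0.0344 on HFHS diet and 0.551 ± 0.0670 with carnosine. In GPx4+/- mice it was 0.696 ± 0.324 on CNTL and 0.453 ± 0.0391 on HFHS diet. GPx4+/- CNTL ran from 0.378 to 1.21 and covered the range of every other group. The ratio of Csad to Slc6a6 was 0.255 ± 0.0656, 0.315 ± 0.0411 and 0.274 ± 0.0483 in these WT groups and 0.294 ± 0.0885 and 0.255 ± 0.0235 in these GPx4+/- groups, and no test was run on either ratio.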
